A study of Homo sapiens with 24 samples.

Results

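The genes described here encode ISG15, a ubiquitin-like protein, and the enzymes that attach it to other proteins and take it off again. There are 6 of them, ISG15, UBA7, UBE2L6, HERC5, HERC6 and USP18, out of 60609 gene rows in the deposited table, and they were chosen by name for these roles. The table holds TPM values, levels scaled by transcript length and to a fixed total per library, for polyadenylated RNA of A549 cells, a human lung adenocarcinoma line. All cells were transfected: one arm received a pool of siRNAs against BOP1, a factor that ribosome assembly needs (called siBOP1 here), and the control arm an siRNA against firefly luciferase, which human cells do not have (siFLuc). The siRNAs acted for 48 h before cells were either mock treated or stimulated with 1000 U/mL of interferon beta (IFN), and RNA was taken 8 h or 12 h later. These choices make 8 groups of 3 libraries, 24 libraries in all. The libraries carry the column numbers 1, 2 and 4.

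Type I interferon reaches its receptor, and a complex that holds STAT2 and IRF9 then binds interferon-stimulated response elements (ISREs) in the promoters of many genes. ISG15 is among the most abundant products of that response. Its attachment runs through a cascade like that of ubiquitin: UBA7 is the E1 enzyme that activates it, UBE2L6 the E2 that carries it, and HERC5 the E3 ligase that places most of it on new proteins in human cells. HERC6 is the nearest relative of HERC5 and does that work in mice. USP18 removes ISG15 from proteins, and it also binds the interferon receptor and dampens its signal.

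The targeted gene was checked first. BOP1 stood at 28.1% of its siFLuc level in mock cells at 8 h, 23.5% in mock cells at 12 h, 29.6% under IFN at 8 h and 24.1% under IFN at 12 h. The 3 siBOP1 libraries lay below the 3 siFLuc libraries each time (2-sided exact permutation p = 0.1, the smallest that 3 against 3 can give). Between 13844 and 14509 genes reached 1 TPM in a library, and Pearson r of the log2 values within a group lay between 0.961 and 0.988. At 12 h, numbers 1 and 2 of a group correlated at 0.985 or more and number 4 with either at 0.977 or less. Of the epithelial markers, KRT8, KRT18, NQO1 and AKR1B10 stood at 1758 TPM or more in all 24 libraries, while EPCAM ranged from 1.92 to 5.48 TPM. The leukocyte marker CD3E was listed at 0 in all 24 libraries and PTPRC in 20 of them. The summed level of all 6 leukocyte markers was 43.7 to 62.0 TPM in mock libraries and 174 to 407 TPM under IFN. CD68, a lysosomal protein, accounted for most of it and rose in all 4 IFN comparisons (log2 change 2.08 to 2.82). The 7 fibroblast and endothelial markers together reached 5.94 to 20.0 TPM. The part of other cells in the results was not tested, and in bulk RNA fewer cells of a type and less RNA per cell cannot be told apart.

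Promoter windows were read from RefSeq (GRCh38.p14), from base -250 to base 50 around the start site, and 4 of the 6 genes had an entry: ISG15, UBE2L6 (with 2 start sites), HERC5 and HERC6. They were searched for the ISRE core GAAANNGAAA on both strands, read as TTTCNNTTTC from the other strand, with overlapping matches counted. The ISG15 window (chr1:1013247-1013546, plus strand) held 2 overlapping matches, from base -113 to -98 relative to the start site. The HERC5 window (chr4:88456869-88457168, plus strand) held 3, of which 2 overlap between -125 and -110 and the other lies from -74 to -65. Of all 35116 promoter windows, 3.57% held at least 1 match, 0.259% at least 2 and 0.037% at least 3. The window of HERC6 (chr4:88378602-88378901, plus strand), whose start site lies 78267 bases from that of HERC5 on the same strand, held none, and none with 1 mismatch either, which 33.0% of all windows held. Both UBE2L6 windows likewise held none. The interferon gamma activated site core TTCNNNGAA was in none of the 5 windows and in 7.66% of all windows. The absence says only that these letters are not in these windows. Both HERC ligases and ISG15 are shown, the first pair because their transcripts reached like levels under IFN with unlike promoter letters. Capitals mark the ISRE core matches.
ISG15 promoter: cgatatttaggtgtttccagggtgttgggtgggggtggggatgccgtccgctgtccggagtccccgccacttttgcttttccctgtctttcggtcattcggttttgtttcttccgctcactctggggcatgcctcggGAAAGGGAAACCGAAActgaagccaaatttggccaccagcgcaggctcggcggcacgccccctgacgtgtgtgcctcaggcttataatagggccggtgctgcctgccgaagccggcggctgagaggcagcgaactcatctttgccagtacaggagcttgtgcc
HERC5 promoter: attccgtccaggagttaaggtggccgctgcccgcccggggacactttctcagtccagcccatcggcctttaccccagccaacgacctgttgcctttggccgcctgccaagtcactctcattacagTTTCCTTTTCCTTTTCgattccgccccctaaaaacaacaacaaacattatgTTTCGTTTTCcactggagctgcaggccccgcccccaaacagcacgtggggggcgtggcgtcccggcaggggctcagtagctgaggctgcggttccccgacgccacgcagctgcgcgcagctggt
HERC6 promoter: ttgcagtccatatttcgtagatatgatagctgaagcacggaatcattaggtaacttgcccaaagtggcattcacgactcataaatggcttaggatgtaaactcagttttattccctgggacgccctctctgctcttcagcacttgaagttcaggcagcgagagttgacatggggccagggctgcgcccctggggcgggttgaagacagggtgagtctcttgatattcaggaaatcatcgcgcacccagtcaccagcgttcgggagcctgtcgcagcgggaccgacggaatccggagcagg

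IFN raised all 6 transcripts in both siRNA arms at both times. The test was limma on log2(TPM + 1) over 16062 genes with at least 1 TPM in 3 libraries or more. A gene is called where its p, adjusted over all genes in that comparison by the Benjamini-Hochberg method, is under 0.05. All 6 genes were called higher in each of the 4 comparisons of IFN with mock. Taken with the siFLuc arm first and, within an arm, the earlier time first, an order kept for IFN changes throughout, these called 5.77%, 7.06%, 5.99% and 7.17% of all genes tested higher. A further 5.07%, 6.43%, 9.11% and 7.58% were called lower. Blocking on the column number called 8.24%, 11.2%, 8.56% and 11.4% of all genes higher and the same 6 of 6. UBA7 is among these 6 but, below 1 TPM in all mock libraries, passed the filter only through its IFN libraries. Its call therefore supports nothing on its own. The median change of the 6 was 4.56, 4.46, 4.65 and 4.67 on the log2 scale, and that of all genes tested was -0.09, -0.06, -0.14 and -0.08.

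**Figure D1:**
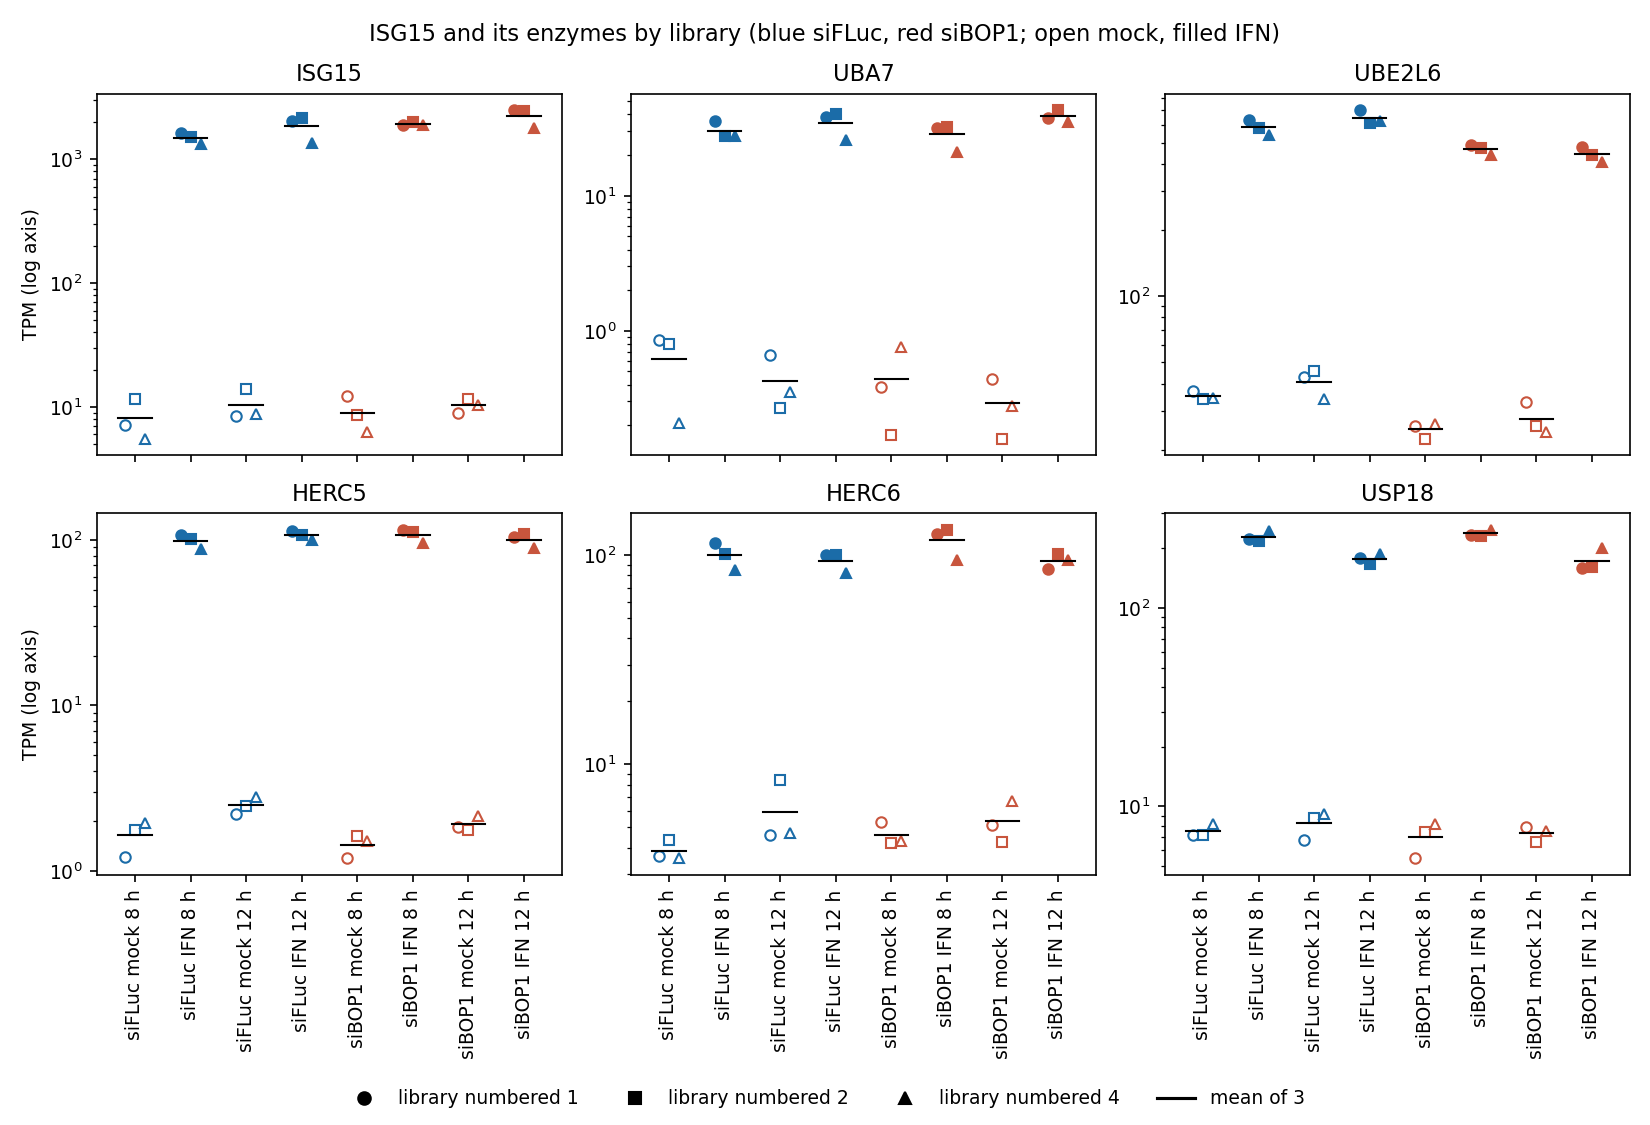
TPM of ISG15, UBA7, UBE2L6, HERC5, HERC6 and USP18 in each of the 24 libraries (log axis), by group. Points are single libraries, and in each gene all 12 IFN libraries lie above all 12 mock libraries. The share of all genes that separate so is not given here.

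ISG15, the modifier itself, showed the largest change of the 6. In siFLuc mock cells at 8 h it stood at 7.10, 11.7 and 5.54 TPM in libraries 1, 2 and 4, and under IFN at 1624, 1523 and 1331 TPM. At 12 h the siFLuc mock libraries held 8.50, 13.9 and 8.73 TPM and the IFN libraries 2049, 2181 and 1362 TPM. Mock and IFN libraries did not overlap, and library 4 was the lowest of the IFN libraries at both times. In siBOP1 cells the mock libraries held 12.2, 8.55 and 6.22 TPM at 8 h and 8.89, 11.7 and 10.3 TPM at 12 h. Under IFN the siBOP1 libraries held 1895, 2013 and 1893 TPM at 8 h and 2514, 2465 and 1784 TPM at 12 h. By its mean in siFLuc cells at 8 h, ISG15 moved from the 8969th most abundant gene to the 101st. In siBOP1 cells under IFN at 12 h it was the 56th. The ratio of mean TPM, IFN over mock, was 184 and 179 with siFLuc and 215 and 219 with siBOP1. On the log2(TPM + 1) scale the changes were 7.41, 7.36, 7.64 and 7.63 (SE 0.24, n = 3 per group), and the least firm had an adjusted p of 1.06e-15 with limma. ISG15 ranked between the 6th and the 8th largest rise of all genes tested in the 4 comparisons. The ISG15 locus (GRCh38, chr1:1001138-1014540, plus strand, GENCODE 29) overlaps the antisense gene AL645608.1 and a pseudogene on the other strand. Whether the counting used strand is not given in the sources used here.

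UBA7, the E1 that starts the cascade, was the scarcest of the 6. It lay below 1 TPM in all 12 mock libraries (0.159 to 0.858 TPM) and therefore entered the test only through its IFN libraries. Under IFN it reached 35.6, 27.6 and 27.8 TPM in siFLuc cells at 8 h and 38.1, 40.7 and 25.9 TPM at 12 h. In siBOP1 cells under IFN it reached 32.0, 32.5 and 21.0 TPM at 8 h and 37.8, 43.2 and 35.5 TPM at 12 h. The IFN changes on the log2(TPM + 1) scale were 4.29, 4.64, 4.36 and 4.95 (SE 0.21), which understate the change because the added 1 exceeds every mock value. With 0.1 added in its place they were 5.55, 6.10, 5.87 and 6.69. The gene (GRCh38, chr3:49805207-49813946, minus strand) holds the microRNA gene MIR5193 on the same strand.

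UBE2L6, the E2 that carries ISG15 from UBA7 to the ligases, had the highest mock level of the 6 and the smallest or next to smallest IFN change. In siFLuc mock cells it stood at 37.0, 34.0 and 34.5 TPM at 8 h and at 42.8, 45.8 and 34.1 TPM at 12 h. Under IFN the siFLuc libraries held 634, 581 and 541 TPM at 8 h and 703, 612 and 626 TPM at 12 h. The IFN changes were 4.02, 3.96, 4.18 and 3.97 on the log2 scale (SE 0.11), or 15.8 to 18.8 times as ratios of mean TPM. UBE2L3, the closest relative of UBE2L6 and an E2 for ubiquitin, was measured at 38.7 to 54.5 TPM in all 24 libraries. Its IFN changes lay between -0.13 and 0.00 on the log2 scale and were not called. UBE2L6 was 8.12 to 16.4 times as abundant as UBE2L3 in the IFN libraries.

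HERC5 and HERC6, neighbouring ligase genes on chromosome 4, started at different levels and reached like levels. HERC5 (GRCh38, chr4:88457117-88506163) held 1.19 to 2.79 TPM in the 12 mock libraries and 87.6 to 115 TPM in the 12 IFN libraries. HERC6 (chr4:88378739-88443111) held 3.56 to 8.47 TPM in mock libraries and 82.7 to 133 TPM under IFN. Within a library, HERC5 was 0.225 to 0.595 times as abundant as HERC6 without IFN and 0.836 to 1.21 times with it, and these ranges do not overlap. The log2 changes were 5.23, 4.95, 5.47 and 5.12 for HERC5 (SE 0.12) and 4.38, 3.82, 4.40 and 3.91 for HERC6 (SE 0.18). HERC3, the next HERC gene on that strand, was measured at 2.30 to 5.66 TPM in the gene row used, of 2 rows with that symbol. Its IFN changes were 0.20, 0.38, 0.43 and 0.53, of which only the last, in siBOP1 cells at 12 h, was called (limma adjusted p = 0.0421).

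USP18, the ISG15 protease, was the only one of the 6 with lower IFN levels at 12 h than at 8 h in every library of both arms. It held 5.48 to 9.15 TPM in the 12 mock libraries. Under IFN the siFLuc libraries held 222, 217 and 244 TPM at 8 h and 179, 167 and 186 TPM at 12 h. The siBOP1 libraries under IFN held 233, 232 and 248 TPM at 8 h and 159, 161 and 199.7 TPM at 12 h. The IFN changes were 4.75, 4.28, 4.91 and 4.39 on the log2 scale (SE 0.13). USP41, a near-identical copy of USP18 on chromosome 22, moved with it: it held 0 to 0.872 TPM in mock libraries and 5.53 to 13.1 TPM under IFN. Reads of the 2 genes may have been split between them in a way the table does not show, so the USP41 value is uncertain. USP18 was 18.4 to 28.8 times as abundant as USP41 under IFN.

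**Figure D2:**
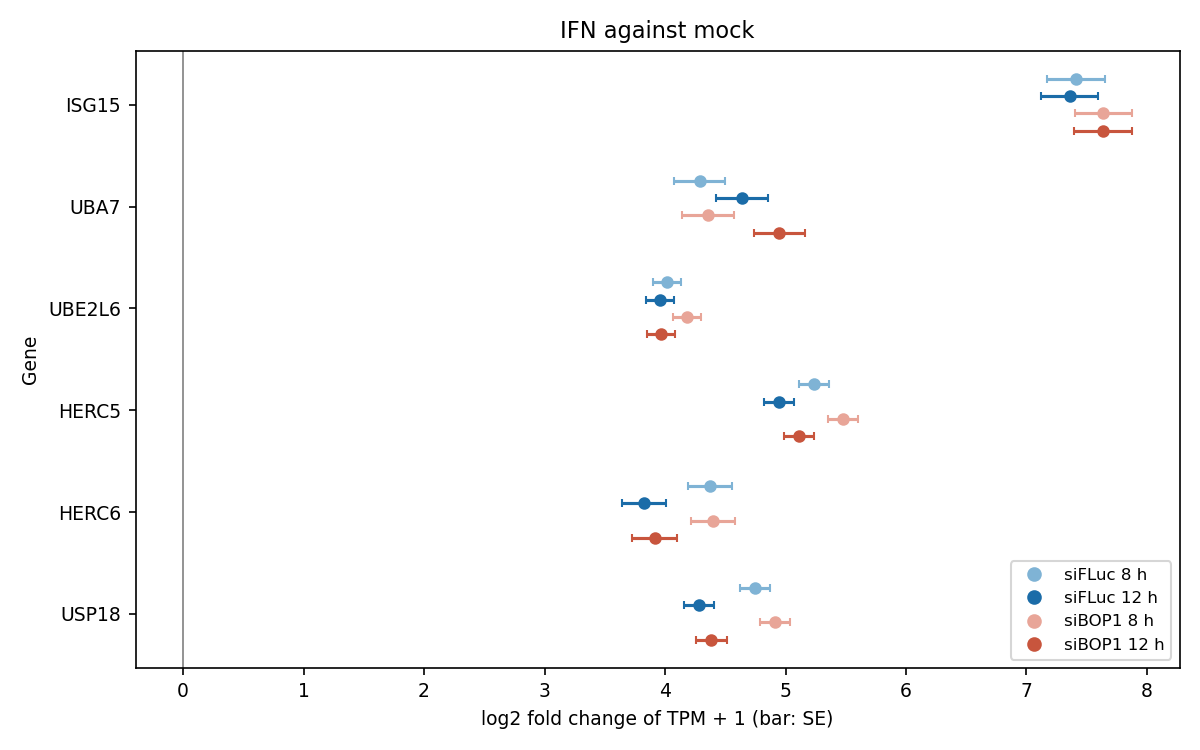
IFN against mock for the 6 genes, as log2 fold change of TPM + 1, in siFLuc and siBOP1 cells at 8 h and 12 h. Bars are the standard error. All 24 values passed the test, and ISG15 stands highest at 7.36 to 7.64. UBA7 entered the test only through its IFN libraries.

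The order of the levels was the same in all 4 IFN groups down to the ligases: ISG15 first, then UBE2L6, USP18, the HERC pair and UBA7. HERC5 and HERC6 overlapped in each of these groups, and the other neighbours did not. In mock cells UBE2L6 stood first and UBA7 last, with HERC5 next to last. ISG15 and USP18 overlapped in 3 of the 4 mock groups, and in siBOP1 mock cells at 12 h the 3 ISG15 values (8.89 to 11.7 TPM) lay above the 3 of USP18 (6.60 to 7.87 TPM). ISG15 made up 10.3% to 24.4% of the summed TPM of the 6 genes in mock libraries and 57.2% to 74.4% under IFN. That sum was 44.5 to 79.7 TPM in mock libraries and 2315 to 3379.5 TPM with IFN.

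With siBOP1, UBE2L6 was the only one of the 6 to be called, and it was lower. At 8 h the siBOP1 mock libraries held 25.7, 22.5 and 26.2 TPM, and at 12 h 32.9, 25.7 and 24.0 TPM. Under IFN the siBOP1 libraries held 487, 473 and 438 TPM at 8 h and 478, 437 and 409.5 TPM at 12 h. Each of these 4 sets of 3 lay below all 3 of the matching siFLuc libraries given above. The share of all genes that separate in this way is not given here. As a share of the siFLuc mean the UBE2L6 level was 70.5% in mock cells at 8 h and 67.3% in mock cells at 12 h. Under IFN it was 79.6% at 8 h and 68.3% at 12 h. The log2 differences were -0.49 (limma adjusted p = 0.0267) and -0.56 (0.0147) in mock cells and -0.33 (0.167, not called) and -0.55 (0.0239) under IFN, at 8 h and 12 h (SE 0.11). Of all genes tested, 0.666%, 0.697%, 0.760% and 0.268% were called lower in these 4 comparisons. When the number was used as a block, 2.58%, 3.35%, 3.84% and 1.61% were called lower and UBE2L6 was called in all 4. Its limma adjusted p with the block was 0.00143 and 0.000662 in mock cells and 0.0182 and 0.00151 under IFN, at 8 h and 12 h. Without the block, the call at 8 h in mock cells ended when any 1 of the 6 libraries was left out (adjusted p = 0.0639 to 0.126). The call at 12 h in mock cells ended without siBOP1 number 2 (0.0764) or 4 (0.104) or siFLuc number 1 (0.063) or 2 (0.0745). That under IFN at 12 h ended without siBOP1 number 2 (0.0983) or 4 (0.105) or siFLuc number 1 (0.172) or 4 (0.0798), and the direction held in all of these. Of the 37 other E2 enzymes tested, none was called lower or higher with siBOP1 in any of the 4 comparisons (with the block, up to 2 higher and up to 1 lower). The block called 5.91%, 4.31%, 4.97% and 2.16% of all genes tested higher in these 4 comparisons.

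**Figure D3:**
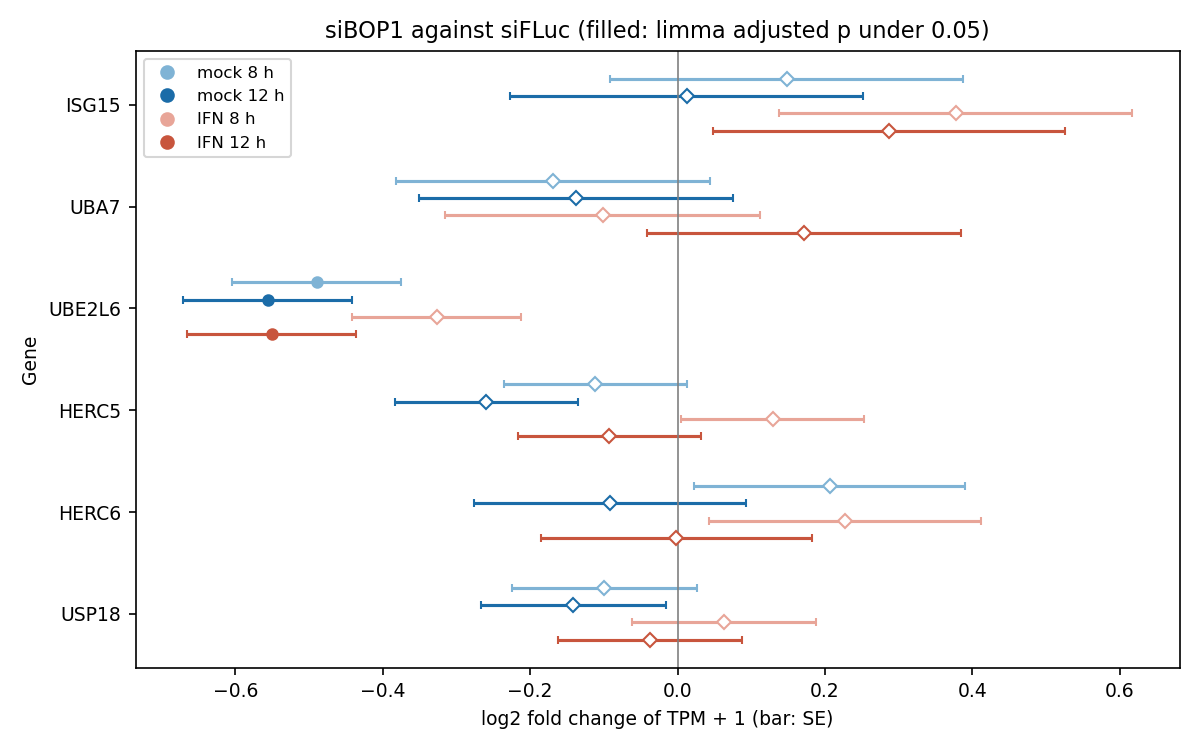
siBOP1 against siFLuc for the 6 genes, as log2 fold change of TPM + 1, in mock and IFN cells at 8 h and 12 h. Bars are the standard error. UBE2L6 lies below 0 throughout, from -0.56 to -0.33. The confidence intervals, as used in the text, are wider than these bars and are not drawn. For the other 5 genes these intervals include 0, except that of HERC5 in mock cells at 12 h.

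UBE2L6 (GRCh38, chr11:57551656-57568284, minus strand) also carries a 7-base word that an earlier look at these data found among the genes lower with siBOP1. The word is GCCAGTT, read on the transcript strand. The longest annotated 3′ UTR of UBE2L6 (702 bases, GENCODE 29) holds it 2 times, at bases 276 to 282 and 585 to 591, and those of the other 5 genes do not hold it. Of the tested genes with an annotated 3′ UTR, 11.8% carry the word and 1.52% carry it 2 times or more. Among genes called lower with siBOP1 the share was 63.8% and 64.0% in mock cells at 8 h and 12 h and 58.4% and 67.6% under IFN. The word was found on these same libraries, so its presence is no independent evidence, and its part in the UBE2L6 difference was not tested. The sites are shown with the word in capitals, from chr11:57552065-57552093 and chr11:57551756-57551784 (GRCh38, minus strand).
UBE2L6 site 1: tgcagttacagGCCAGTTctccagctctc
UBE2L6 site 2: cctgttagattGCCAGTTcctgggaccag

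The other 5 genes were not called with siBOP1 in any of the 4 comparisons. ISG15 under IFN was higher with siBOP1 in all 3 libraries than in any siFLuc library at 8 h, and the groups overlapped at 12 h. The log2 differences were 0.38 (95% interval -0.12 to 0.88, limma adjusted p = 0.545) and 0.29 (-0.21 to 0.79, 0.851). In mock cells they were 0.15 and 0.01. HERC5 in mock cells at 12 h lay at 1.77 to 2.15 TPM with siBOP1 and 2.21 to 2.79 TPM with siFLuc, a difference of -0.26 (adjusted p = 0.391). For ISG15 at 8 h and for HERC5 here, the share of all genes that separate in this way is not given. USP18 differed by -0.14 to 0.06, and the interval of the lowest of these ran from -0.40 to 0.12. HERC6 differed by -0.09 to 0.23 and UBA7 by -0.17 to 0.17. In mock cells the added 1 exceeds every UBA7 value and shrinks its differences. The mean UBA7 level with siBOP1 there was 70.2% of the siFLuc mean at 8 h and 68.6% at 12 h, with overlapping libraries.

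The abundance of ISG15 relative to its E2 was not tested between the arms, and its values per library are given here. In siFLuc cells ISG15 was 2.56, 2.62 and 2.46 times as abundant as UBE2L6 at 8 h and 2.91, 3.57 and 2.18 times at 12 h. In siBOP1 cells it was 3.89, 4.26 and 4.32 times as abundant at 8 h and 5.26, 5.64 and 4.36 times at 12 h. Under IFN the 3 siBOP1 libraries lay above the 3 siFLuc libraries at both times. The share of other gene pairs that separate so is not given here. In mock cells at 8 h the ratio was 0.161 to 0.343 with siFLuc and 0.237 to 0.477 with siBOP1. At 12 h these ranges were 0.199 to 0.305 and 0.270 to 0.454. The ratio of the mean levels was higher with siBOP1 in mock cells too, but the libraries overlapped at both times. The ratio of ISG15 to UBE2L6 was singled out after its values were seen, and it restates the UBE2L6 and ISG15 levels given above.

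**Figure D4:**
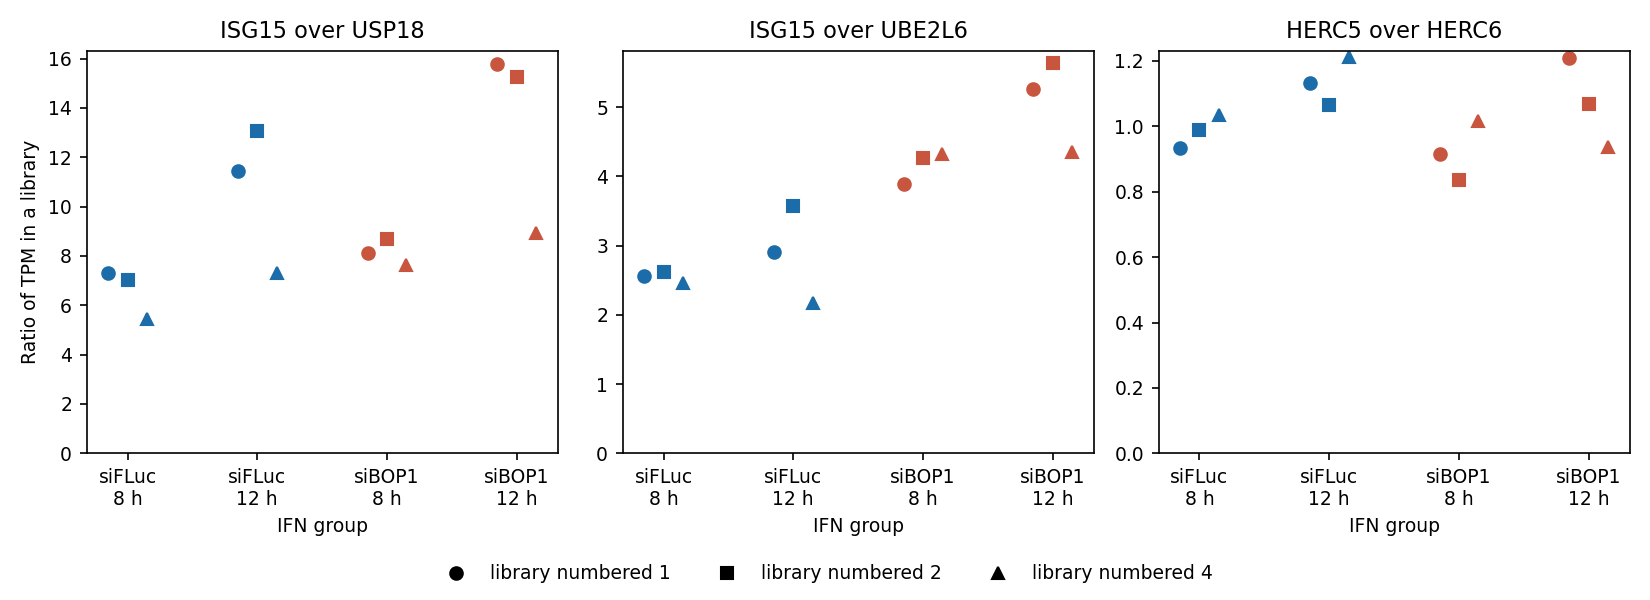
Ratios of TPM within each library of the IFN groups, for ISG15 over USP18, ISG15 over UBE2L6 and HERC5 over HERC6 (linear axis). Under IFN the ratio of ISG15 to UBE2L6 lies at 2.18 to 3.57 in siFLuc cells and at 3.89 to 5.64 in siBOP1 cells.

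Whether the IFN effect itself differed between the arms was tested as an interaction. None of the 6 genes was called at 8 h or 12 h, and neither was any other gene (0.00% and 0.00% of 16062). An unadjusted p under 0.05 was found for 353 and 259 genes, of which none was among the 6. The interaction was 0.23 for ISG15 at 8 h (95% interval -0.48 to 0.93) and 0.27 at 12 h (-0.43 to 0.98). For UBE2L6 it was 0.16 (-0.18 to 0.50) and 0.01 (-0.33 to 0.34). The UBE2L6 difference with siBOP1 was thus measured without IFN as well as with it, and the tests found no difference between its sizes. These intervals leave room for a difference in the ISG15 response of up to 0.98 on the log2 scale.

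From 8 h to 12 h, none of the 6 genes was called by the test above in either arm, with or without IFN. Of all genes, 0.131% were called in siFLuc mock cells, 3.53% in siFLuc IFN cells, 0.230% in siBOP1 mock cells and 2.96% in siBOP1 IFN cells, shares that moved widely between settings. USP18 under IFN came nearest. It fell by a mean of 228 to 177 TPM in siFLuc cells, a log2 difference of -0.36 (95% interval -0.62 to -0.10, limma adjusted p = 0.114). In siBOP1 cells the means were 238 and 173 TPM, a difference of -0.46 (-0.72 to -0.20, adjusted p = 0.0501). The 3 libraries at 12 h lay below the 3 at 8 h in both arms, and the share of all genes that separate so is not given here. USP18 was called lower in both arms with median-of-ratios rescaling and with a block over both times (lowest limma adjusted p 0.0337 with siFLuc, 0.0103 with siBOP1). In siBOP1 cells it was also called with a filter at a mean of 5 TPM, in the libraries numbered 1 and 2 alone, and without the IFN library at 12 h numbered 4 (limma adjusted p = 0.0408, 0.0346 and 0.028). ISG15 differed by 0.30 and 0.21 under IFN, with overlapping libraries. ISG15 was 5.45 to 7.32 times as abundant as USP18 at 8 h and 7.32 to 13.1 times at 12 h in siFLuc cells. In siBOP1 cells these ranges were 7.62 to 8.69 and 8.93 to 15.8. UBA7 under IFN in siBOP1 cells lay at 21.0 to 32.5 TPM at 8 h and 35.5 to 43.2 TPM at 12 h, a difference of 0.45 (adjusted p = 0.268). The change of the IFN effect with time was called for 1 gene in siFLuc cells (0.00623%) and none in siBOP1 cells (0.00%). That gene was ACO1 (limma adjusted p = 0.0221), named after its values were seen. An unadjusted p under 0.05 was found for 575 and 603 genes. They included USP18 in both arms (-0.47 and -0.52, limma adjusted p = 1 for both) and HERC6 in siFLuc cells (-0.55, adjusted p = 1).

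Across the 24 libraries the 6 genes ran closely together, with Pearson r of log2(TPM + 1) between 0.985 and 0.996 for every pair. As all 24 libraries share the contrast between mock and IFN, these values describe that contrast mainly. The tested genes most like ISG15 were IFI6, IFI27 and BST2 (r = 0.999, 0.998 and 0.998). For UBA7 they included IDO1 and LAMP3, and they were for UBE2L6 IFI16, RIGI and GBP4, and for HERC5 OAS3, NT5C3A and IRF7. For HERC6 they were GBP1, SP100 and IRF7, and for USP18 CMPK2, TDRD7 and MX2. All these r values lay between 0.993 and 0.999.

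Other genes linked to ISG15 moved less uniformly. In a list of 9, of which 8 passed the filter, 3 were called higher in siFLuc cells at 8 h and none lower: STAT2, TRIM25 and USP41. Of all genes tested, 5.77% were called higher and 5.07% lower there. USP41, below 1 TPM in all 12 mock libraries, entered the test only through its IFN libraries, so its call supports nothing on its own. STAT2, which carries USP18 to the receptor, changed by 3.74 to 4.20 on the log2 scale over the 4 IFN comparisons. TRIM25, a ubiquitin ligase that also attaches ISG15, held 33.8 to 63.8 TPM in mock libraries and 200.2 to 286 TPM under IFN, a change of 2.31 to 2.47. At 12 h SKP2, which targets proteins for degradation, was called lower in both arms (-0.41 and -0.40), and IFNAR2, the receptor chain USP18 binds, was called higher in siBOP1 cells (0.55). Both were named after their values were seen. ARIH1, another ligase that accepts ISG15, held 65.5 to 120.4 TPM in all libraries and was not called, with changes of -0.16 to -0.03. The median change of the 8 in siFLuc cells at 8 h was 0.08, against -0.09 for all genes tested.

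Enzymes of the same families that serve ubiquitin and other modifiers were mostly not called. The lists were chosen with earlier results of these data known. In siFLuc cells at 8 h, 1 of 9 other E1 enzymes was called higher and none lower, and 2 of 37 other E2 enzymes were called higher and 6 lower. None of the 4 other HERC ligases tested was called. Of 16 other modifiers, 1 was called higher and 1 lower, and of 43 other ubiquitin-specific proteases 7 and 2. Over all genes tested these shares were 5.77% higher and 5.07% lower, and no test sets a list against them. With the block the E1 counts were 1 higher and 2 lower, those of the E2 enzymes 2 and 8, those of the modifiers 2 and 1, and those of the proteases 8 and 7. Over all genes tested the block called 8.24% higher and 12.7% lower in that comparison. The median changes of these 5 lists lay between -0.13 and -0.03, near the -0.09 of all genes.

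**Figure D5:**
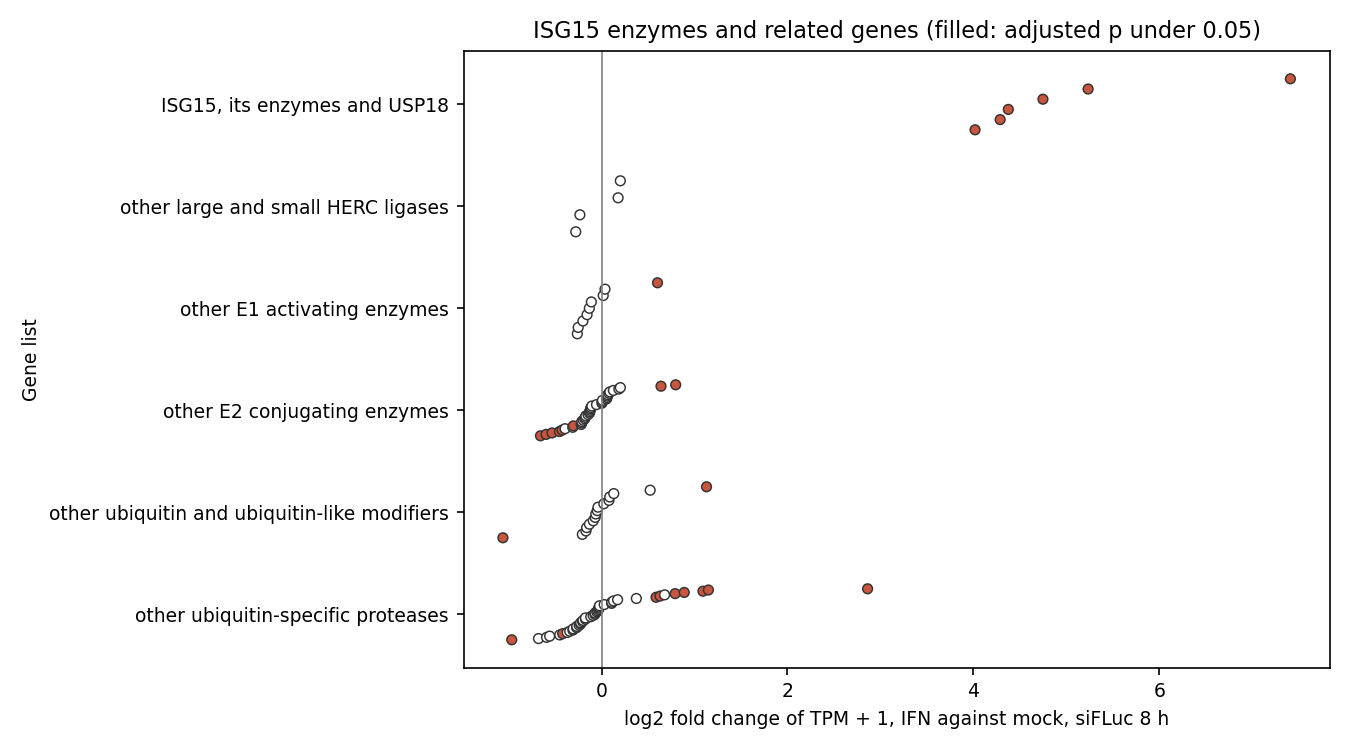
IFN against mock in siFLuc cells at 8 h, as log2 fold change of TPM + 1, for the 6 genes and for the tested genes of 5 related families. Each point is 1 gene, and filled points were called. The 6 genes lie between 4.02 and 7.41 and the highest of the other genes, USP41, at 2.86.

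UBA6, an E1 for ubiquitin and for FAT10, was called higher in all 4 IFN comparisons (0.60, 0.62, 1.06 and 0.82). UBD, which encodes FAT10 itself, another interferon-induced modifier, was called higher in all 4 as well (1.13, 1.88, 1.92 and 2.18), with group means of 1.65 to 2.28 TPM in mock cells and 4.81 to 13.9 TPM under IFN. UBL3, a membrane-bound ubiquitin-like protein, was called lower in all 4 (-0.85 to -1.06). Among the proteases, USP15 and CYLD were called higher in all 4 (1.03 to 1.37 and 0.92 to 1.20) and USP22 lower (-0.83 to -1.07). USP41, USP11, USP25 and USP33 were also called higher in all 4 and USP7 lower, all but USP41 named after their values were seen. The E2 genes called in the same direction in all 4 comparisons, named after their values were seen, were UBE2Z and UBE2O, which were higher, and UBE2E3, CDC34 and AKTIP, which were lower. UBE2Z, the E2 that works with UBA6 on FAT10, changed by 0.64 to 0.74. With siBOP1 and no block, 1 gene of these lists was called, USP10 in mock cells at 12 h (-0.74, limma adjusted p = 0.0381), and it too was named after its values were seen. With the block, 1 and 3 proteases were called lower in mock cells at 8 h and 12 h, and 3 and 2 under IFN. The block also called, in a single comparison, up to 2 E2 enzymes higher and 1 lower and 1 E1 enzyme higher. It likewise called 1 modifier higher or lower and 1 of the other genes linked to ISG15 higher. Over all genes tested the block called 5.91% and 4.31% higher in mock cells at 8 h and 12 h, and 4.97% and 2.16% under IFN. The shares called lower were 2.58% and 3.35% in mock cells and 3.84% and 1.61% under IFN.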

How the data were processed

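The authors deposited 1 table of TPM values with 60609 gene rows and 24 columns, each summing to 1000000. Aligner, quantification tool, genome build and annotation are not given in the sources used here. RNA was extracted with TRIzol and a column with DNase, and libraries were stranded mRNA libraries, per the labels' protocols. TPM keeps no depth, so no counting interval can be given, and TPM is a share, so a strong rise of some genes lowers all others.

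The columns end in the numbers 1, 2 and 4, while the labels number 3 replicates per group. For 16 columns the number matched a labelled replicate, and the 8 numbered 4 could be placed only in their group. The labels do not say whether replicates were separate cultures, so p-values measure the spread between these libraries, which may be technical.

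The test was limma 3.58.1 (R 4.3.3) on log2(TPM + 1), for the 16062 genes that reached 1 TPM in 3 libraries or more. It used 8 group means over all 24 libraries, an intensity trend and 16 comparisons. Within each comparison p-values were adjusted over all of these genes (Benjamini-Hochberg), and 0.05 was the threshold. Same-numbered libraries deviated together within a time (r = 0.115 to 0.508 over 8 comparisons, all above 0.1), so fits with the number as a block are given where they change a call. The fit was tested on simulated data. Symbols were matched by gene ID for 60340 rows, and promoters come from RefSeq and 3′ UTRs and gene positions from GENCODE 29 (GRCh38).

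The genes named are the 6, BOP1, up to 4 per list past the threshold with a log2 change of at least 1 in an IFN comparison (an absolute value), 5 relatives whatever their values (TRIM25, ARIH1, USP41, UBE2L3, HERC3) and the 3 tested genes most like each of the 6. Of the genes this rule and the marker lists hold, 2 are not reported here. The 6 genes and the lists were chosen with earlier results of these data known. Alternatives were a pseudocount of 0.1, other filters, 2 rescalings, no trend, only the groups compared, the block, replicates 1 and 2 only, and leaving out each library.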

Additional observations from a re-analysis of the deposited data

How the results depend on the processing

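All 24 IFN changes of the 6 genes kept their direction and stayed called in all 16 alternatives, so 6 of 6 were called throughout. UBA7 passed the filter of the main fit only through its IFN libraries, so its part in this count supports nothing on its own. With siBOP1, the count of the 6 called lower, 1 (UBE2L6), became 0 in mock cells at 8 h without the trend, with median-of-ratios rescaling, with quantile normalization and with only the groups compared. It was 0 (lowest and highest) when any 1 library was left out. In mock cells at 12 h it became 0 with only the groups compared, and ran from 0 to 1 on leaving out a library, ending without siBOP1 number 2 or 4 or siFLuc number 1 or 2. Under IFN at 12 h it became 0 without the trend, with median-of-ratios rescaling, with only the groups compared and with replicates 1 and 2 only, and ran from 0 to 1 on leaving out a library, ending without siBOP1 number 2 or 4 or siFLuc number 1 or 4. The highest adjusted p of UBE2L6 over these settings was 0.126, 0.357 and 0.317, its direction held in all, and the cause was not tested. Under IFN at 8 h the replicate block raised the count from 0 to 1 (adjusted p = 0.0182, and not called in the other 15 alternatives).

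USP18 from 8 h to 12 h under IFN was called, a count of 1 in place of 0, in siFLuc cells with median-of-ratios rescaling and with a block over both times. In siBOP1 cells this held with these, with a filter at a mean of 5 TPM, with replicates 1 and 2 only, and without the siBOP1 IFN 12 h library numbered 4 (0 to 1 on leaving out a library). The block over both times and the list counts on replicates 1 and 2 were chosen after seeing the data, and a block within each time was not run for the comparisons of 12 h with 8 h. Of the 66 values of the 6 genes that were called in no setting, 23 changed sign in some alternative.

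The number of all genes called moved by over 1.5 times with several settings. With siBOP1 it was 347, 257, 322 and 106 (mock 8 h and 12 h, IFN 8 h and 12 h) and ranged over 41 to 1364, 10 to 1231, 23 to 1415 and 1 to 606, the highest with the block. With IFN it was 1741, 2166, 2426 and 2370 and ranged over 1186 to 3370, 951 to 4326, 1596 to 4653 and 1541 to 4487. From 8 h to 12 h it was 21, 567, 37 and 475 (siFLuc mock and IFN, siBOP1 mock and IFN) and ranged over 1 to 263, 4 to 1270, 2 to 198 and 12 to 1133. The count of time by IFN interactions ranged over 0 to 11 in siFLuc cells and 0 to 4 in siBOP1 cells, and that of siRNA by IFN interactions at 8 h over 0 to 4. Median-of-ratios rescaling moved the median change of all genes under IFN in siBOP1 cells at 8 h from -0.14 to -0.01. BOP1 stayed at 21.0% to 31.9% of its control level whichever library was left out. TPM gives no depth, so what depth limits cannot be stated.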
